A study of Homo sapiens with 6 samples.

Results

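Cytochrome P450 enzymes were examined in HepG2 cells, a human hepatoblastoma-derived liver cancer line, with and without atractylon, a sesquiterpenoid of Atractylodes rhizomes. The genes were the protein-coding genes of GENCODE 29 whose symbol is CYP followed by a family number, a subfamily letter and a member number, together with POR, their reductase; CYP51A1, CYP7A1, CYP8B1 and CYP27A1, enzymes of cholesterol and bile acid synthesis, were left out. Of 33791 genes to which the deposited transcripts could be assigned, 51 met this rule, 50 P450 enzymes and POR, through 332 transcripts. A further gene that met it, CYP4F8, had no matching transcript and was not analysed here. There were 6 RNA-seq libraries, 3 from cells treated with 20 µM atractylon and 3 from cells without it, all grown in the same serum-supplemented medium. The comparison is of treated with untreated cells; the labels give neither the length of treatment nor a vehicle. They call the libraries replicates without saying whether each came from its own culture, so every p-value reflects library-to-library spread that may be technical.

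P450 enzymes are haem proteins that insert an oxygen atom into a substrate, mostly at the endoplasmic reticulum, with electrons passed from NADPH by POR; those in mitochondria are served by ferredoxin and its reductase instead. Some families clear drugs and environmental chemicals in the liver, while others make or break down steroids, vitamins, fatty acids and eicosanoids. Several drug-metabolising genes are induced through the aryl hydrocarbon receptor, the pregnane X receptor (NR1I2) or the constitutive androstane receptor (NR1I3), and cultured hepatoma cells are known to hold much less of many of them than hepatocytes do.

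The libraries held 5859575 to 8832092 expected counts, the estimated numbers of reads per transcript. Of these, 8.70% to 9.07% lay on transcripts without a GENCODE 29 match. All 13 hepatocyte markers were detected, among them ALB and AFP. Of the markers of other cells, 2 of 9 fibroblast, 4 of 10 blood, 2 of 7 endothelial and 5 of 6 biliary genes were detected, at summed levels whose ranges overlapped between the groups. Some of these were abundant. The highest mean level over all libraries was 568 FPKM among the blood genes (LYZ) and 713 FPKM among the biliary genes (SPP1). It was 57.7 FPKM among the fibroblast genes (ACTA2) and 1.33 FPKM among the endothelial genes (VWF). The fibroblast genes DCN, LUM, THY1, COL1A2 and COL3A1 and the blood genes MS4A1, CSF1R and HBB had no count. The libraries differed in base composition within each group. The rank correlation across genes between a library's deviation from the mean and GC content was -0.596 in atractylon replicate 1, -0.421 in control replicate 1, 0.595 and 0.393 in atractylon replicates 2 and 3, and 0.176 and 0.0204 in control replicates 2 and 3. The part of this trend in any gene's difference was not tested gene by gene. The comparison of genes was also fitted with the trend removed, but those of single transcripts and of transcript ratios were not.

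A gene was called detected when its FPKM, the count scaled for transcript length and library size and summed over its transcripts, reached 0.5 in at least 3 of the 6 libraries. POR and 23 of the 50 P450 genes were detected. They took 0.0699% to 0.0810% of the counts assigned to genes when all 51 genes were summed. On the FPKM scale, which allows levels of different genes to be compared, POR was the most abundant. Its level was 142, 161 and 152 FPKM with atractylon and 136, 142 and 139 FPKM in controls, which made up 34.7% to 36.8% of the summed FPKM of all 51 genes. The P450 enzymes together summed to 262.8, 276.5 and 278.3 FPKM with atractylon and to 235.6, 257.8 and 262.9 FPKM in controls, so that the lowest treated library lay just under the highest control library. Only a few genes made up most of that sum. CYP24A1, CYP2W1 and CYP1A1 held 51.8% to 56.0% of it in each library, and with CYP4F12, CYP4F3 and CYP4F11 they held 72.9% to 79.3%. Short forms raise FPKM more than counts. A retained-intron form of 550 bases was 41.5% of the FPKM of CYP4F12 and 13.3% of its counts. CYP4F3-204, a form of 559 bases annotated as subject to nonsense-mediated decay, was 52.8% of the FPKM of CYP4F3 and 13.5% of its counts. The CYP4F genes stand in the opposite order on the CPM scale, with CYP4F11 at a mean of 35.0 with atractylon and 31.6 in controls, CYP4F3 at 31.3 and 28.1, and CYP4F12 at 26.5 and 23.3.

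**Figure D1:**
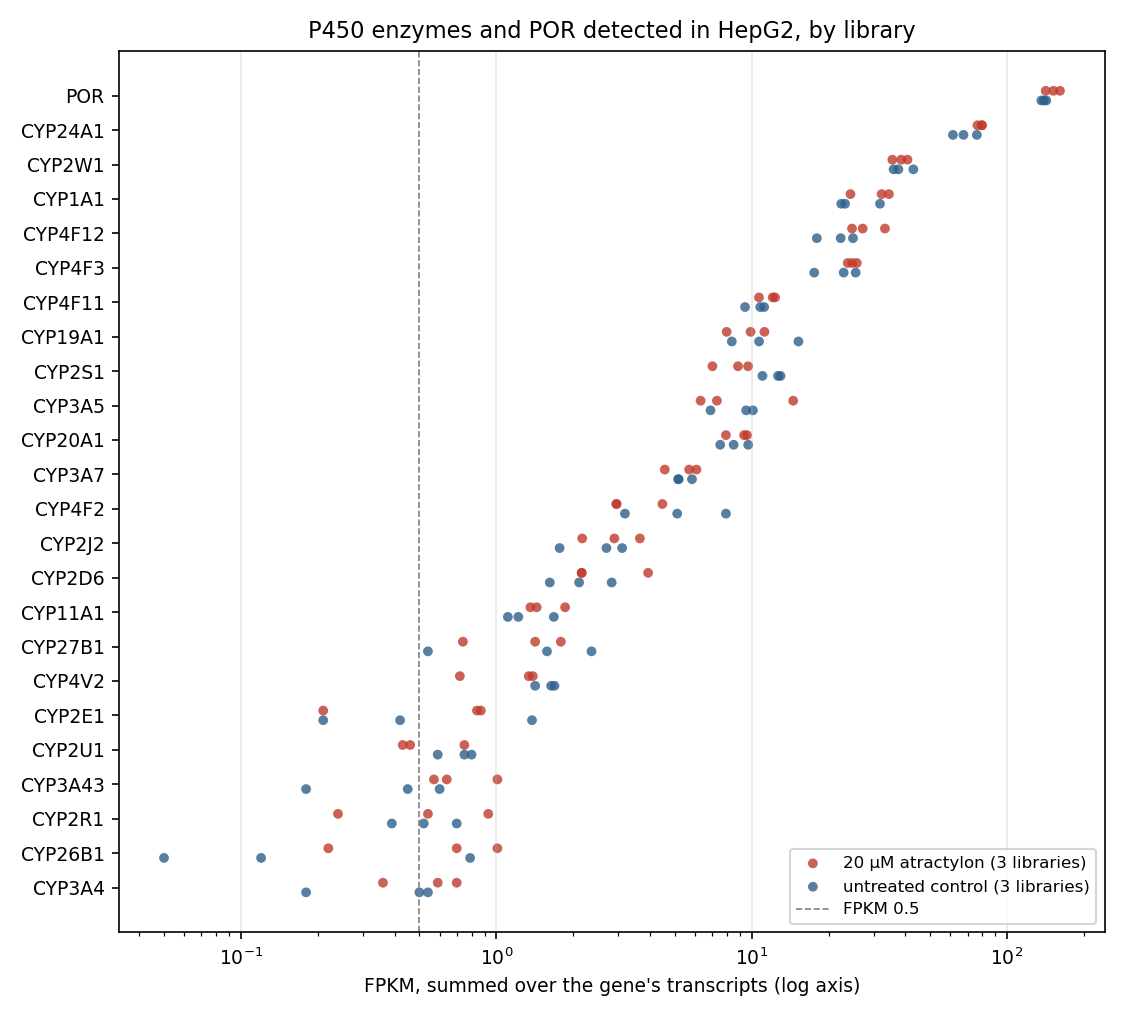
FPKM of POR and the 23 detected P450 genes on a log axis, ordered by mean level, with 1 point per library (red, atractylon; blue, control) and the detection threshold of 0.5 as a dashed line. POR leads at 136 to 161 FPKM, CYP24A1 follows at 61.4 to 79.7 FPKM, and the points of the treated and control libraries are interleaved for most genes.

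Of the 15 xenobiotic-metabolising P450 genes, 6 were detected. CYP1A1, which oxidises polycyclic aromatic hydrocarbons and is the classical target of the aryl hydrocarbon receptor, had 24.4, 34.5 and 32.3 FPKM with atractylon and 22.4, 23.2 and 31.8 FPKM in controls. The groups overlapped, and the lowest treated library was replicate 1. CYP3A5, a drug-metabolising enzyme that varies between people by inherited splicing, had 14.5, 7.31 and 6.31 FPKM with atractylon and 10.1, 6.90 and 9.51 FPKM in controls. The treated libraries ranged both lower and higher than the controls, with replicate 1 the highest of all. CYP3A7, the main CYP3A enzyme of the fetal liver, lay between 4.57 and 6.08 FPKM, and CYP2D6, which metabolises many antidepressants and opioids, lay between 1.62 and 3.93 FPKM. CYP3A4, the main drug-metabolising P450 of adult liver, was at the edge of detection with 0.590, 0.700 and 0.360 FPKM against 0.180, 0.5 and 0.540 FPKM in controls. CYP2E1, which oxidises ethanol and small solvents, was likewise low, with 0.870, 0.210 and 0.840 FPKM against 0.420, 0.210 and 1.38 FPKM.

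The other 9 xenobiotic-metabolising genes were under the threshold. CYP2B6, the classical target of the constitutive androstane receptor, had no count in any library, nor had CYP2A6, CYP2A13, CYP2C18 or CYP2F1. CYP2C8 and CYP2C19 had 1 count each over all 6 libraries. CYP1A2, the close relative of CYP1A1 that metabolises caffeine, had 2 counts in atractylon replicate 3, 2 in control replicate 1 and none in the other libraries. A count of 0 allows up to 3 counts, which is 0.371 to 0.551 CPM depending on the library's depth; CPM is the count scaled to a common library size. That limit holds for a single library and covers counting error only. No limit was set for a group of libraries, and a small effect on these genes could go unseen at this depth.

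The detected CYP3A genes are close relatives, nearly identical in the haem-binding loop, the stretch that holds the cysteine bound to the haem iron. In windows of 50 bases they were mostly distinct. That length was chosen here and was not taken from the reads. The loop was found by translating each coding transcript and searching for the amino acid pattern F..G.R.C.G, in which a dot is any residue. Of the 51 genes, 47 had exactly 1 match. The 30 bases that encode it are given 5′ to 3′ on the strand of the gene from the GENCODE 29 transcripts (GRCh38), with capitals where a letter differs from CYP3A5:
CYP3A5, chr7:99650157-99650186, minus strand: tttggaactggacccagaaactgcattggc
CYP3A4, chr7:99760903-99760932, minus strand: tttggaaGtggacccagaaactgcattggc
CYP3A7, chr7:99707896-99707925, minus strand: tttggaaGtggacccagaaactgcattggc
CYP3A43, chr7:99863586-99863615, plus strand: tttggaGctggacccCgaaactgcattggc
CYP3A4 and CYP3A7 are identical here and differ from CYP3A5 at 1 base, and CYP3A43 differs at 2. Over whole transcripts, 7.99% of the windows of 50 bases in CYP3A4 and 5.03% of those in CYP3A7 also occur in another gene on the same strand, chiefly of this subfamily. The share was 1.39% in CYP3A5 and 1.06% in CYP3A43. The summed counts of CYP3A4 and CYP3A7 were whole numbers in all 6 libraries, within a tolerance of 0.05, those of CYP3A43 in 5 and those of CYP3A5 in 4.

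Of the 10 genes of sterol and steroid metabolism, 2 were detected. CYP19A1, the aromatase that converts androgens to oestrogens, had 11.2, 7.98 and 9.90 FPKM with atractylon and 8.36, 15.2 and 10.7 FPKM in controls. CYP11A1, which cuts the side chain of cholesterol in mitochondria as the first step of steroid synthesis, had 1.11 to 1.86 FPKM. The 2 groups overlapped for both genes. CYP17A1, the steroid hydroxylase and lyase of the adrenal and gonads, had 5, 4 and 1 counts with atractylon and 2, 3 and 1 in controls. CYP21A2, the adrenal hydroxylase that has a nearly identical pseudogene, had 15.19 estimated counts in atractylon replicate 1, 13.02 in control replicate 2 and 0 in the other 4 libraries. CYP1B1, an oestrogen hydroxylase also induced through the aryl hydrocarbon receptor, had 2 counts in all, 1 in each group. CYP7B1 had 4 counts and CYP46A1 had 3, while CYP11B1, CYP11B2 and CYP39A1 had none.

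Of the 10 fatty acid and eicosanoid hydroxylases, 7 were detected. CYP4F12, an arachidonic acid and drug hydroxylase, had 24.7, 27.2 and 33.2 FPKM with atractylon and 18.0, 22.3 and 24.9 FPKM in controls. The highest control library was just above the lowest treated one. Of the mean FPKM, that retained-intron form gave 13.7 with atractylon and 7.08 in controls, and the coding form CYP4F12-201 gave 8.96 and 8.05. CYP4F3, which inactivates leukotrienes, had 23.8, 25.8 and 24.8 FPKM against 22.9, 17.6 and 25.5 FPKM. CYP4F11, a hydroxylase of long-chain fatty acids and of vitamin K, had 12.3, 10.7 and 12.1 FPKM against 9.42, 11.2 and 10.8 FPKM. CYP4F2, which starts the breakdown of vitamins E and K, spanned 2.95 to 7.93 FPKM. The arachidonic acid epoxygenase CYP2J2 had 1.77 to 3.65 FPKM. CYP4V2, the fatty acid hydroxylase mutated in Bietti crystalline dystrophy, had 0.720 to 1.69 FPKM, and the long-chain fatty acid hydroxylase CYP2U1 had 0.430 to 0.800 FPKM. CYP4A11, CYP4F22 and CYP4B1 were not detected, with 4.33, 3 and 1 counts over all libraries.

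The CYP4F genes lie in 1 cluster on chromosome 19, and their haem-binding loops, read in the same way with capitals where a letter differs from CYP4F3, differ by 1 to 4 bases. In each of them the codons of the loop are split by an intron, which is contained in the coordinates but not in the sequence:
CYP4F3, chr19:15658793-15659232, plus strand: ttctcagcagggcccaggaactgcatcggg
CYP4F2, chr19:15878924-15879362, minus strand: ttctcGgcagggcccaggaactgcatcggg
CYP4F11, chr19:15913897-15914321, minus strand: ttctcGgcagggcccagAaactgcatcggg
CYP4F12, chr19:15696496-15696920, plus strand: ttctcCgcagggcccaggaactgcatcggg
CYP4F22, chr19:15550740-15551306, plus strand: ttctcTgcaggAcccaggaaTtgcatcggA
Of the windows of 50 bases, 12.1% in CYP4F2 and 8.27% in CYP4F3 recur in another gene on the same strand, mainly in each other, against 1.97% in CYP4F12 and 0.663% in CYP4F11. CYP4F12 and CYP4F11 had whole summed counts in every library, CYP4F2 in 5 and CYP4F3 in 4. Whole sums did not follow the shared windows, since CYP19A1 was whole in no library and CYP2S1 and POR in 1 each, with shares of 0%, 0% and 0.091%. The share was largest in CYP2D6 among the detected genes, in which 34.4% of the windows recur in CYP2D7 and CYP2D8P and whose summed count was whole in no library. Of the windows of CYP2E1, 16.2% occur on the opposite strand in SYCE1, and of those of CYP11A1, 6.16% occur on the opposite strand in other genes. Reads of this shared sequence cannot be told apart without knowing the strand. The sources used here name the library kit but give no strand setting.

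Of the 7 genes of vitamin A and D metabolism, 4 were detected. CYP24A1, the mitochondrial enzyme that inactivates vitamin D, was the most abundant P450 of these cells. It had 76.6, 79.7 and 79.7 FPKM with atractylon and 67.5, 76.2 and 61.4 FPKM in controls, and every treated library was above every control library. CYP27B1, which makes the active hormone that CYP24A1 breaks down, had 0.540 to 2.36 FPKM. CYP2R1, which performs the first activating hydroxylation of vitamin D in the liver, had 0.240 to 0.930 FPKM, and CYP26B1, a retinoic acid hydroxylase, had 0.05 to 1.01 FPKM. The retinoic acid hydroxylases CYP26A1 and CYP26C1 had 1 and 2 counts, and CYP27C1 had none.

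Of the 8 P450 genes whose substrates are little known, 4 were detected. CYP2W1, a gene silent in most adult tissue and active in some tumours, was the second most abundant P450, at 35.6, 40.8 and 38.5 FPKM with atractylon and 36.0, 37.5 and 43.0 FPKM in controls. The groups overlapped. CYP2S1, an enzyme of epithelia, had 7.02, 8.84 and 9.68 FPKM with atractylon and 11.0, 13.0 and 12.7 FPKM in controls. All treated libraries were below all control libraries on this scale. CYP20A1, which has no firmly assigned substrate, had 7.53 to 9.69 FPKM, and CYP3A43 had 0.180 to 1.01 FPKM. CYP2A7, CYP4X1 and CYP4Z1 had no count, and CYP4A22 had 0.67 of a count.

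Atractylon was compared with control by edgeR's quasi-likelihood test on summed expected counts over the 12302 genes that met the detection rule, with p-values adjusted over all of them. No P450 gene and not POR passed the threshold of 0.05 (0 of 24, against 0% of all genes tested). At an unadjusted p under 0.05 the count was also 0 of 24, against 1.59% of all genes, and DESeq2 likewise called none. In bulk RNA, fewer cells and less RNA per cell cannot be told apart. The log2 fold change was positive for 14 of the 24 genes and negative for 10, against 53.3% positive over all genes, with a median of 0.05 against 0.01. Without atractylon replicate 1, 13 were positive and 11 negative. By role, 5 of 6 xenobiotic, 0 of 2 steroid, 5 of 7 fatty acid, 2 of 4 vitamin and 1 of 4 little-known enzymes had a positive value. The groups did not overlap in CPM for 1 of the 24, CYP4F12, where atractylon was higher, against 5.72% of all genes in either direction and 2.71% in that one. On the FPKM scale they did not overlap for 3, CYP24A1, which was higher with atractylon, and CYP2S1 and CYP4V2, which were lower, against 7.29% of all genes in either direction and 4.10% lower.

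The intervals of these genes differed in the sizes of change they allow. The 95% interval lay within a 2-fold difference in either direction for 14 of the 24 genes, against 81.3% of all genes tested. It lay within 1.5-fold for 10, namely POR, CYP24A1, CYP2W1, CYP1A1, CYP4F12, CYP4F3, CYP4F11, CYP2S1, CYP20A1 and CYP3A7. It reached beyond 2-fold for CYP2D6, CYP11A1, CYP27B1, CYP4V2, CYP2E1, CYP2U1, CYP3A43, CYP2R1, CYP26B1 and CYP3A4, which had at most 194.28 counts each over all 6 libraries. For CYP3A4, a common induction marker, the interval ran from 0.399-fold to 3.17-fold, and for CYP2E1 from 0.341-fold to 2.90-fold.

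**Figure D2:**
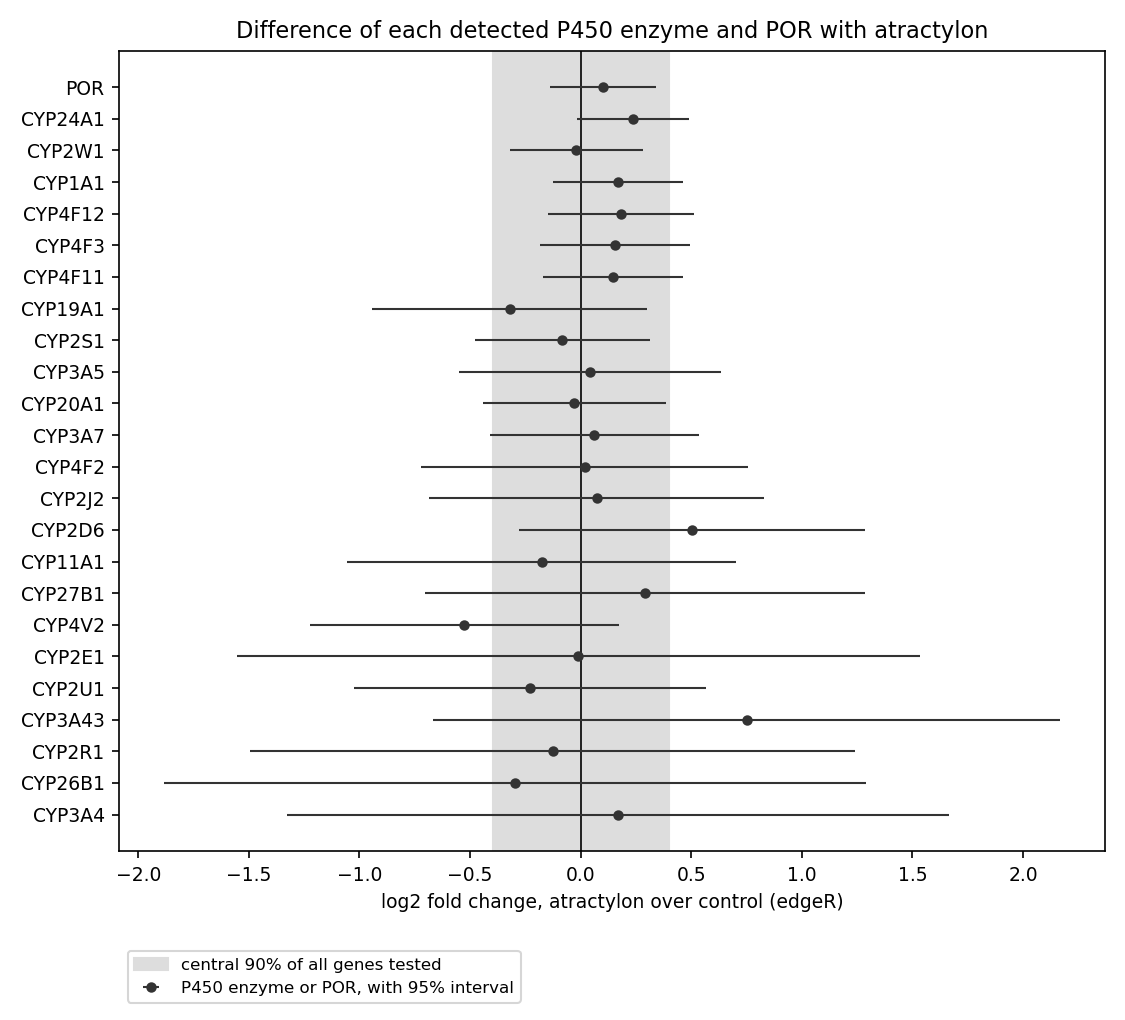
Log2 fold change of atractylon over control for POR and the 23 detected P450 genes, ordered by mean FPKM, with 95% intervals from edgeR's quasi-likelihood test and a grey band for the central 90% of all 12302 genes tested (-0.40 to 0.40). Every interval includes 0, and the intervals widen from POR (-0.14 to 0.34) to the genes of lowest level such as CYP26B1 (-1.88 to 1.29).

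The smallest p of the 24 belonged to CYP24A1. Its normalised read count was 105, 115 and 114 CPM with atractylon and 90.7, 106 and 86.2 CPM in controls, a mean of 111 ± 5.15 against 94.4 ± 10.5 (SD, n = 3 each). The highest control library, replicate 2, lay between the treated values. The log2 fold change was 0.24 ± 0.11 (SE), or 1.18-fold with a 95% interval of 0.989 to 1.40. In edgeR's test it had an unadjusted p of 0.0641 and an adjusted p of 0.9999. The unadjusted p fell under 0.05 when the GC trend was removed (0.0487), without atractylon replicate 1 (0.0313), without control replicate 2 (0.0486), with the replicate number as a block (0.0415) and with the block and the GC trend removed together (0.0163). The adjusted p stayed above the threshold in each, and without atractylon replicate 1 the unadjusted p was under 0.05 for 10.7% of all genes.

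CYP4V2 had the second smallest p and the largest negative value. It had 4.90, 4.25 and 2.58 CPM with atractylon and 6.98, 5.43 and 4.70 CPM in controls, and the highest treated library was just above the lowest control. Its log2 fold change was -0.53 ± 0.32 (SE) and edgeR's unadjusted p was 0.125. CYP2D6 had 3.18, 6.07 and 3.34 CPM against 3.49, 2.41 and 2.97 CPM, where replicate 2 alone was well above the controls. Its log2 fold change was 0.50 ± 0.36 (SE), with an unadjusted p of 0.184 in edgeR, and its counts are shared with pseudogenes as described above. CYP3A43 had 0.764 ± 0.161 CPM against 0.456 ± 0.265 CPM (SD, n = 3 each), a log2 fold change of 0.75 ± 0.64 (SE) that rests on 25.09 counts in all.

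CYP1A1, as a gene, had 50.9, 62.4 and 62.0 CPM with atractylon and 47.4, 52.0 and 56.2 CPM in controls. Replicate 1 lay within the control range and the other treated libraries above it. The log2 fold change was 0.17 ± 0.13 (SE), with an interval of -0.13 to 0.46 and an unadjusted p of 0.233 in edgeR's test. CYP4F12, the gene whose groups did not overlap in CPM, had 26.9, 25.4 and 27.1 CPM against 21.9, 23.8 and 24.3 CPM. Its log2 fold change was 0.18 ± 0.15 (SE), with an unadjusted p of 0.252; on the log2(FPKM + 0.5) scale the difference was 0.38 in limma. Its neighbours CYP4F3 and CYP4F11 had values of nearly the same size, 0.15 ± 0.15 and 0.15 ± 0.14 (SE), and CYP4F2 had 0.02 ± 0.33.

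POR, the reductase, had 307, 388 and 351 CPM with atractylon and 312, 331 and 331 CPM in controls. Replicate 1 was the lowest of all 6 libraries and the other treated libraries the highest. The log2 fold change was 0.10 ± 0.11 (SE), with an unadjusted p of 0.367 in edgeR's test. CYP2W1 differed least among the abundant enzymes, with 82.5 ± 11.5 CPM against 83.4 ± 8.87 CPM (SD, n = 3 each) and a log2 fold change of -0.02 ± 0.14 (SE). CYP2S1, whose FPKM did not overlap between groups, had 19.0, 19.7 and 19.0 CPM against 17.1, 23.8 and 20.0 CPM, and these did overlap. Its log2 fold change on counts was -0.08 ± 0.18 (SE). CYP3A5 had 17.2, 10.8 and 8.04 CPM against 12.1, 11.3 and 11.8 CPM. Its log2 fold change of 0.04 ± 0.27 became -0.32 without atractylon replicate 1.

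**Figure D3:**
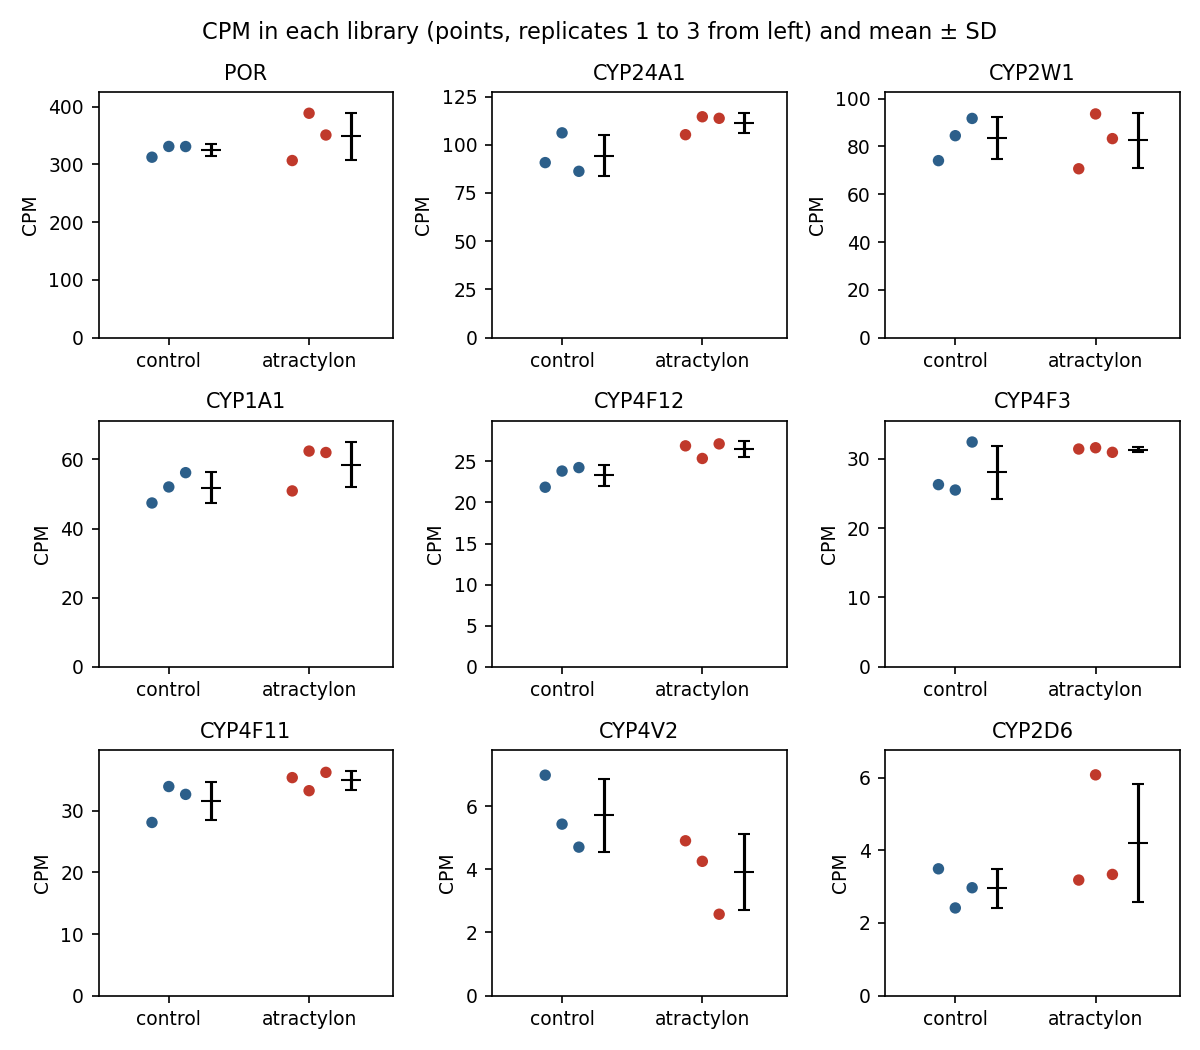
CPM in each library for 9 genes, with replicates 1 to 3 from left to right in each group and the mean ± SD beside them (blue, control; red, atractylon). The groups are apart only for CYP4F12 (25.4 to 27.1 against 21.9 to 24.3 CPM); for CYP24A1 control replicate 2 lies at 106 CPM, above atractylon replicate 1 at 105 CPM.

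The gene sums hide how counts were divided among transcripts, and the following analysis was chosen after the values had been seen. CYP24A1 was represented mainly by CYP24A1-202, a transcript of 10 exons and 1116 coding bases. It carried 90.8% of the gene's FPKM and 83.8% of its counts. The full-length form CYP24A1-201, with 12 exons and 1542 coding bases, starts 2020 bases upstream and has 2 exons that lie wholly upstream of CYP24A1-202. It had 4.24, 2.65 and 4.03 FPKM with atractylon and 1.49, 3.16 and 2.50 FPKM in controls. The ratio of the CYP24A1 forms overlapped between the groups. For POR, the transcript POR-218 held 89.6% of the FPKM and 96.3% of the counts.

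For CYP1A1, the levels of the most abundant pair of forms did not overlap between the groups. CYP1A1-201 (ENST00000379727) had 11.9, 12.8 and 14.5 FPKM with atractylon and 7.04, 5.29 and 6.03 FPKM in controls. CYP1A1-202 (ENST00000395048) had 6.11, 6.59 and 5.38 FPKM with atractylon and 10.2, 11.0 and 12.5 FPKM in controls. Every treated library was thus above every control library for the first form and below every control library for the second. Fitted over 39882 transcripts, none of which passed the threshold, the log2 fold changes were 1.12 ± 0.18 and -0.88 ± 0.18 (SE). Their unadjusted p in edgeR's test was 0.00044 and 0.00186, and the adjusted p was 1.0 for both. CYP1A1-206, a short form, varied too widely to compare, with 5.01, 14.3 and 11.3 FPKM against 4.82, 0 and 12.5 FPKM.

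**Figure D4:**
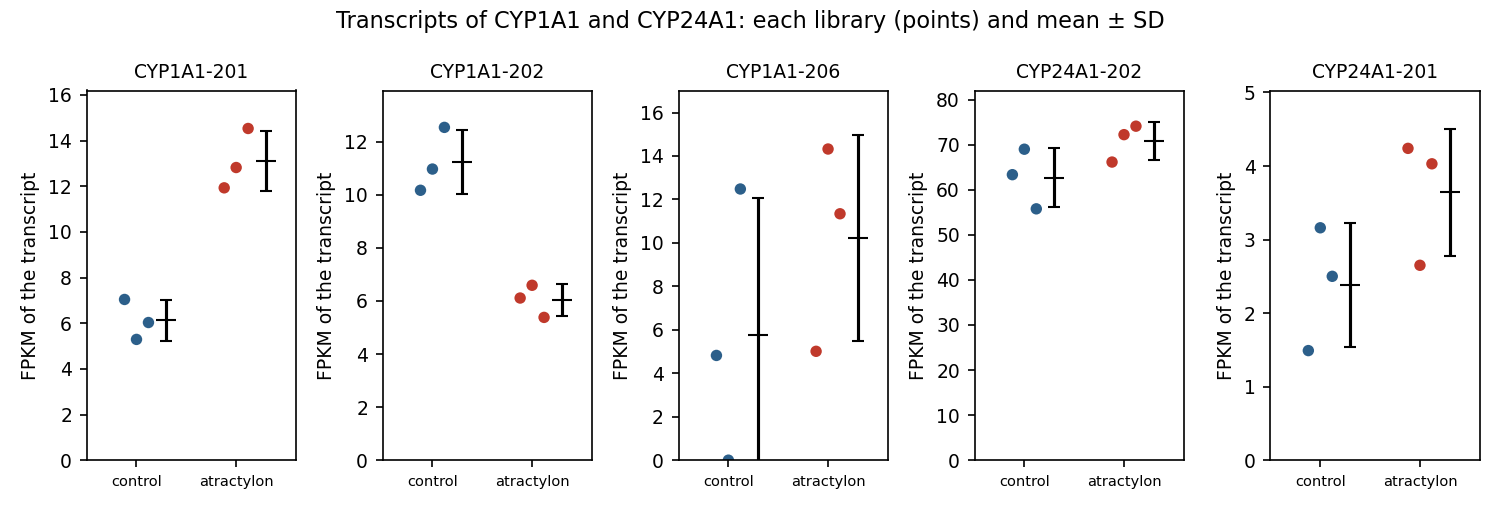
FPKM of 3 CYP1A1 transcripts and 2 CYP24A1 transcripts in each library, with the mean ± SD beside the points (blue, control; red, atractylon; the lower error bar of CYP1A1-206 in controls is cut at 0). CYP1A1-201 lies at 11.9 to 14.5 with atractylon and 5.29 to 7.04 in controls, and CYP1A1-202 at 5.38 to 6.59 and 10.2 to 12.5; the other 3 transcripts overlap between groups.

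As a share of the pair, CYP1A1-201 made up 66.1%, 66.0% and 73.0% with atractylon and 40.9%, 32.5% and 32.5% in controls. The difference of the log2 ratio, on the log2(FPKM + 0.5) scale, was 1.89 ± 0.32 (SE). In limma the unadjusted p was 0.00104 and the adjusted p 0.606 over the 8700 genes that had a ratio of their most abundant pair of transcripts. By p the gene ranked 15 among them. Of the 14 genes described here that had such a ratio, POR among them, 3 had an unadjusted p under 0.05 in limma, against 4.55% of all genes, and 0 had an adjusted p under 0.05. The others were CYP4F2, whose retained-intron form CYP4F2-208 was 37.3%, 27.1% and 27.8% of its pair against 77.1%, 84.4% and 65.8% in controls, and CYP2S1. These shares rest on few reads. CYP4F2-208 had 0.66, 0.45 and 0.44 FPKM with atractylon, near the pseudocount of 0.5, and 1.18, 2.75 and 2.85 FPKM in controls. It took 3.89% to 6.60% of the gene's counts with atractylon and 19.0% to 23.1% in controls. The whole gene had 12.04 to 37.98 counts per library. CYP2S1-206 had 0, 1.55 and 0 FPKM with atractylon and 2.55, 4.86 and 4.12 FPKM in controls, while the main form CYP2S1-201 overlapped between groups. The ratio did not overlap between groups for 5 of the 14, against 9.67% of all genes. Of the 69 transcripts of these genes tested singly, 2 had an unadjusted p under 0.05, against 2.32% of all transcripts, and 8 did not overlap, against 8.61%.

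The CYP1A1 forms have the same coding exons and share 5 of 7 exons exactly. Their starts lie 74 bases apart and the starts of exon 2 differ by 3 bases, so few reads can tell them apart and the division is the estimate of the authors' program. Both starts fall in the promoter window of the gene in RefSeq, the 250 bases before its start, which is printed because it holds both annotated starts. CYP1A1-201 starts at base 169 and CYP1A1-202 at base 243 of this window, counted from its 5′ end on the strand of the gene (GRCh38.p14, chr15:74725529-74725778, minus strand). Capitals mark GCGTG, the core of the element bound by the aryl hydrocarbon receptor, and TATAAA, the TATA box sequence:
CYP1A1 promoter: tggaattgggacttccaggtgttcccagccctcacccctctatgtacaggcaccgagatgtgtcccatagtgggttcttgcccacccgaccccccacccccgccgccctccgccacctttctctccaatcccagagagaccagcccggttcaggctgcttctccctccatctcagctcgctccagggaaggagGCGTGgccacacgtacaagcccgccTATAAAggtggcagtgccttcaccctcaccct
GCGTG, searched on both strands, begins at base 194, and TATAAA, searched on the strand of the gene, begins at base 219. Both therefore lie between the annotated starts. Of 35116 RefSeq promoter windows of this length, 32.2% hold GCGTG on either strand and 6.8% hold TATAAA on the strand of the gene. A match is a description of the letters and not a site of binding. Of the 51 genes, 36 had a promoter in that table.

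The genes that serve P450 enzymes were read from the same fit, in lists of electron donors, haem synthesis and breakdown, regulators and other oxidising and hydrolysing enzymes. No gene of any list passed the threshold. The list of electron donors also held PGRMC1 and PGRMC2. Of its 11 genes tested, 5 had a positive and 6 a negative log2 fold change. PGRMC2, a haem-binding membrane protein, had 39.6, 41.3 and 37.8 CPM with atractylon and 50.9, 44.8 and 49.1 CPM in controls, without overlap. Its log2 fold change was -0.29 ± 0.13 (SE) with an unadjusted p of 0.0472 in edgeR. Over all genes tested, 5.72% did not overlap in CPM in either direction, and 1.59% had an unadjusted p under 0.05 in that test. The next smallest p values of the list were those of the cytochrome b5 reductases CYB5R2 (-1.17 ± 0.82, SE) and CYB5R3 (0.17 ± 0.12). CYB5A, cytochrome b5, also had groups without overlap, in the other direction from PGRMC2. It had 121, 120 and 117 CPM with atractylon and 115, 109 and 103 CPM in controls, a log2 fold change of 0.13 ± 0.10 (SE). FDXR, the reductase that serves mitochondrial P450 enzymes such as CYP24A1, had -0.02 ± 0.12. Of 12 genes of haem synthesis and breakdown, 6 were positive and 6 negative. ALAD, an early enzyme of haem synthesis, had the smallest p, with 47.9 ± 1.47 CPM against 54.8 ± 0.441 CPM (SD, n = 3 each). Its log2 fold change was -0.19 ± 0.12 (SE), with an unadjusted p of 0.124 in edgeR. It was followed by HMOX2 and BLVRB of haem breakdown, at 0.15 ± 0.13 (SE) each.

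Of 21 regulators, 18 were tested, 11 with a positive and 7 with a negative log2 fold change. NR0B2, the small heterodimer partner that represses bile acid and drug metabolism genes, had 156, 205 and 194 CPM with atractylon and 141, 145 and 142 CPM in controls. All treated libraries were above all controls, by 0.37 ± 0.12 (SE) on the log2 scale. In edgeR's test the unadjusted p was 0.00882 and the adjusted p 0.9999. Over all genes tested, the groups did not overlap in CPM for 5.72% in either direction and for 2.71% with atractylon higher. The unadjusted p was under 0.05 in that test for 1.59% of them. AHRR, the repressor of the aryl hydrocarbon receptor and itself one of its targets, had 0.67 ± 0.39 (SE). The receptors of xenobiotics were named after their values had been seen. AHR had 68.8, 32.3 and 37.3 CPM with atractylon and 47.6, 44.6 and 41.7 CPM in controls, a log2 fold change of 0.05 ± 0.24 (SE) in which replicate 1 was the highest library. NR1I2 had 11.6 ± 0.764 CPM against 14.3 ± 0.494 CPM (SD, n = 3 each), with each treated library below each control. In FPKM the groups overlapped, with 6.65, 5.64 and 6.61 with atractylon and 6.54, 8.50 and 6.85 in controls. The log2 fold change of NR1I2 was -0.30 ± 0.18 (SE), with an unadjusted p of 0.128 in edgeR. NR1I3 had 0.841 ± 0.413 CPM against 1.32 ± 0.306 CPM (SD, n = 3 each). Of 36 other oxidising and hydrolysing enzymes, 25 were tested, 12 positive and 13 negative, all with intervals within 2-fold; the smallest p was that of the alcohol dehydrogenase ADH6 (-0.32 ± 0.16, SE), followed by ALDH1A1 (-0.18 ± 0.12) and AKR1C2 (-0.29 ± 0.22). The P450 enzymes with other symbols were TBXAS1, thromboxane synthase, at a mean of 1.28 FPKM, and PTGIS, prostacyclin synthase, listed at 0.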

How the data were processed

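The submitters' processing notes name HISAT2 2.0.1, cutadapt 1.9.1, DESeq2 1.6.3, bcl2fastq 2.17.1.14 and hg19. Which program estimated abundance, on which annotation and with which strand setting, is not given in the sources used here. Per the file headers, the authors deposited for each Ensembl transcript in each library its expected count and its FPKM. A SMART-Seq v4 kit was used, per the labels' protocols.

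Of 180253 transcripts, 153245 (85.0%) were matched by ID to GENCODE 29, and summed per gene; printed coordinates are that annotation's (GRCh38), since the deposited values carry none. Summed counts were rounded and tested with edgeR 4.0.16 (TMM, group only, Benjamini-Hochberg adjustment over 12302 genes with FPKM of at least 0.5 in 3 libraries) in R 4.3.3. Ratios of transcripts were tested with limma 3.58.1, and DESeq2 1.42.0 was an alternative. CPM values are summed counts scaled to the TMM-adjusted size of the library over the genes tested. Scripts were tested on simulated data. Each library was counted once. The replicates differed by more than sampling noise in every pair, but that excess may be technical. Independence of the cultures was not tested. Replicate numbers were not taken to pair libraries.

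The genes and lists were chosen with earlier results of these data known. Genes described by rule were the 10 of highest mean FPKM, POR, the 6 of smallest p, those without overlap in CPM, CYP1A2, CYP1B1, CYP2B6, CYP3A4 and CYP2E1, and up to 3 of smallest p per list of partner genes; others are given by role, except a few that are left unnamed. Alternatives changed the normalisation, filter, tool, pseudocount, unmatched transcripts, GC trend, block and replicates.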

Additional observations from a re-analysis of the deposited data

How the results depend on the processing

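Of 17 alternatives, 16 called 0 of all genes, and P450 genes and POR past the threshold numbered 0 in each, with 0.4326 as the smallest adjusted p. Leaving out 1 replicate called 0 to 1 genes as lower, the 1 without atractylon replicate 1. DESeq2 gave 102 genes an unadjusted p under 0.05, edgeR 196. Deviations of libraries that share a replicate number correlated at 0.132, 0.176 and 0.0115 for replicates 1, 2 and 3. Those with different numbers correlated at -0.168 to 0.0234. Replicates 1 and 2 thus correlated best with their own number, and atractylon replicate 3 with control replicate 2 (0.0185). Whether the numbers pair the libraries was not settled. With the replicate block, 297 genes had an unadjusted p under 0.05 and 0 passed the threshold, with CYP24A1 at 0.0415. Without atractylon replicate 1, 1319 genes (10.7%) had an unadjusted p under 0.05. With limma on log2(FPKM + 0.5), CYP2S1 and CYP4F12 had an unadjusted p under 0.05. Detection at FPKM 1 left 18 genes. Depth limits what can be said of the 27 genes not detected and of the 10 whose intervals reach beyond 2-fold. For transcript ratios, chosen after seeing the data, a pseudocount of 0.1 called 4 genes in place of 0, not CYP1A1, whose difference was 1.74 to 2.05 over its alternatives (adjusted p 0.4606 to 0.9664 in limma).

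Of 402 alternative log2 fold changes of the 24 genes, 350 kept their sign; the 52 that did not belonged to 13 genes, and the cause was not tested. Leaving out 1 replicate gave ranges of -0.128 to 0.0807 for CYP2W1, -0.189 to 0.0364 for CYP2S1, -0.316 to 0.244 for CYP3A5, -0.108 to 0.0574 for CYP20A1, -0.0555 to 0.159 for CYP3A7, -0.231 to 0.215 for CYP4F2, -0.223 to 0.3 for CYP2J2, -0.41 to 0.0482 for CYP11A1, -0.0359 to 0.705 for CYP27B1, -0.465 to 0.866 for CYP2E1, -0.721 to 0.227 for CYP2R1, -0.669 to 0.784 for CYP26B1 and -0.344 to 0.857 for CYP3A4. With limma at pseudocounts 0.5, 0.1 and 1, the sign turned for CYP20A1 (0.0615, 0.0645 and 0.0583), CYP4F2 (-0.519, -0.563 and -0.473), CYP11A1 (0.165, 0.211 and 0.131), CYP27B1 (-0.0608, -0.0441 and -0.0615), CYP2E1 (0.0287, 0.0815 and 0.00863) and CYP26B1 (0.523, 1.09 and 0.329), and at 0.5 and 1 for CYP2R1 (0.00491 and 0.0124). With the GC trend removed, CYP20A1 had 0.0252 and CYP2E1 0.0208; with the replicate block, CYP3A5 had -0.0235 and CYP2E1 0.089; with both, CYP20A1 had 0.0243 and CYP2E1 0.12. CYP2E1 had 0.0266 with DESeq2, 0.00477 with no filter and 0.0102 with unmatched transcripts kept.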
